A study of Mus musculus with 10 samples.

Results

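Transcripts of 9 complement components were examined in the hearts of Rit1 M90I/+ mice, which carry a Noonan syndrome-associated allele of Rit1, a RAS-family GTPase that acts upstream of the RAF-MEK-ERK kinases. The genes were C1qa, C1qb, C1qc, C1ra, C1s1, C3, C4b, C6 and C7, taken by gene name from a table of 54532 genes and selected because C7 was lower with treatment in these same hearts. Of the 9 genes, 8 passed the filter on low values that left 12602 genes for testing, an average over all hearts of 0.5 FPKM or more (fragments scaled to gene length and to library size), and C6 did not. All 10 mice had the heterozygous M90I allele in the germline, obtained by crossing a conditional Rit1 M90I line to mice with Cre under the cytomegalovirus promoter, so the allele was not limited to cardiac cells and no heart without it was compared. In 5 mice trametinib, an allosteric inhibitor of MEK1 and MEK2 (MEKi), was dosed daily at 1 mg/kg, starting at 4 weeks of age and lasting 20 weeks, and 5 mice received vehicle (0 mg/kg) over the same period. The comparison asks how the transcriptome of these hypertrophy-prone hearts differed at the end of MEK inhibition.

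Complement is a cascade of secreted proteins. C1q, built from the A, B and C chains, binds immune complexes and dying cells and activates the attached proteases C1r and C1s, which cleave C4 and C2 to form a convertase for C3. C3 is the component on which all activation routes converge, and C5, C6, C7, C8 and C9 then assemble the membrane attack complex, in which C7 gives the growing complex its affinity for lipid. The liver supplies most circulating complement, whereas tissue macrophages are the main local source of C1q and stromal cells of many organs transcribe C3, C1r, C1s and C7.

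The 3 C1q genes lie side by side on the minus strand of chromosome 4 of GRCm38, C1qb from 136880129 to 136886187, C1qc from 136889804 to 136893065 and C1qa from 136895917 to 136898803, with 3616 bases between C1qb and C1qc and 2851 between C1qc and C1qa. C1ra (chromosome 6, 124512405 to 124523443, plus strand) and C1s1 (124530345 to 124542359, minus strand) are 6901 bases apart. C4b (34728380 to 34743882) and C3 (57203970 to 57228136) are both on the minus strand of chromosome 17. C6 (4727175 to 4814967, plus strand) and C7 (4988762 to 5063740, minus strand) are neighbours on chromosome 15. Promoter windows, from 250 bases before to 50 after the annotated start (RefSeq, GRCm38.p6), were on hand for 7 of the 9 genes, 8 windows in all. They are shown for C7 and C3, which had the largest differences between the groups, and for C1qb and C1qc, which encode chains of the same protein. Capitals mark matches to any of 3 motifs searched on both strands.
C7, chr15:5063724-5064023, minus strand: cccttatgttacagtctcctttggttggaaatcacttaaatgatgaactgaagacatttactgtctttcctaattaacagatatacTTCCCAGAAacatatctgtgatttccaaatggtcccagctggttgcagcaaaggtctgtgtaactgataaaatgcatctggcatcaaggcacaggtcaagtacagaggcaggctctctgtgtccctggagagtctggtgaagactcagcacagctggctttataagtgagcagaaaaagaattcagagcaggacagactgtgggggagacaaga
C3, chr17:57228087-57228386, minus strand: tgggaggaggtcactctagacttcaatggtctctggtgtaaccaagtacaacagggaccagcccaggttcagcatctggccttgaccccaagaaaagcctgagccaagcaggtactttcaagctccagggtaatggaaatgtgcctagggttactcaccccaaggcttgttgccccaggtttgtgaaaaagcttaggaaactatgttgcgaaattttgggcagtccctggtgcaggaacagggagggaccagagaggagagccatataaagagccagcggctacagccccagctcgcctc
C1qb, chr4:136886151-136886450, minus strand: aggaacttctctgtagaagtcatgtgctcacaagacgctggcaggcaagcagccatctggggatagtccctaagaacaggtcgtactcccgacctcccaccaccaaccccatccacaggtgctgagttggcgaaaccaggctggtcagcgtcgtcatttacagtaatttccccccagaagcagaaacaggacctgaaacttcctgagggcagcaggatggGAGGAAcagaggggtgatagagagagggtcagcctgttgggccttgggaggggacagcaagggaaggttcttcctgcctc
C1qc, chr4:136892865-136893164, minus strand: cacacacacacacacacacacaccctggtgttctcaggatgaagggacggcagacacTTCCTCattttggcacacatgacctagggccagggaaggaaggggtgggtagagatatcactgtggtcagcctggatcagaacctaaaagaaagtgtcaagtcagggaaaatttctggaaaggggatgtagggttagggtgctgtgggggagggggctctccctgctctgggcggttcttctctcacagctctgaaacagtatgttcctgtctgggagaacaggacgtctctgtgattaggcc
The motif TTCNNNGAA, bound by STAT factors, starts at position -164 relative to the C7 start and was present in 2 of the 8 windows and in 8.30% of all 32851 promoter windows. The sequence GAGGAA, the core of sites for the myeloid factor PU.1, starts at -30 in C1qb and at -193 in C1qc (there on the opposite strand). It was present in 3 of the 8 windows and in 28.3% of all windows. The other window with GAGGAA was that of C1ra, which was also the other with TTCNNNGAA. The AP-1 motif TGANTCA was in 0 of the 8 windows, against 7.81% of all windows, and the C3 window held none of the 3 motifs. These are matches of letters and not measurements of binding.

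The hearts had 13647167 to 18474002 fragments in genes (median, 15215992). Limma was used to compare log2(FPKM + 0.1) between the groups, with Benjamini-Hochberg adjustment over the 12602 genes and a threshold of 0.05. Fold changes are given on that scale and are too small for genes of low FPKM. Only 10 genes (0.0794%) passed, 960 (7.62%) had an unadjusted p under 0.05, and the groups did not overlap for 207 genes (1.64%), of which 107 (0.849% of the genes tested) were lower with MEKi. Xist, the RNA of the inactive X chromosome, was at 5.86 ± 0.671 FPKM in MEKi-treated hearts and 0.00132 ± 0.00296 FPKM in vehicle hearts (SD, n = 5 each). The Y-linked Ddx3y and Eif2s3y were at 11.2 ± 0.714 and 9.74 ± 1.01 FPKM in vehicle hearts and at 0 fragments in every MEKi-treated heart. Sex-linked transcripts thus divided the hearts exactly as treatment did, and for every gene the effect of the drug and that of sex cannot be told apart. Vehicle 4, vehicle 5 and MEKi 2 stood apart from the other hearts in atrial transcripts, with 258 to 615 FPKM of the atrial light chain Myl7 against 1.58 to 27.0 FPKM in the remaining 7 hearts. The labelled tissue showed its defining transcripts, with the sum of 6 cardiomyocyte markers between 15131 and 20779 FPKM in vehicle and between 14949 and 20485 FPKM in MEKi-treated hearts. In whole hearts, fewer cells of a type and less RNA per cell cannot be told apart.

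None of the 8 complement genes that passed the filter, C7 included, passed the threshold in limma. With MEKi the values were lower for 6 genes and higher for 2, and the median log2 fold change was -0.35, beside 0.01 for all genes tested. C3 and C1qb, 2 of the 7 tested genes other than C7, had an unadjusted p under 0.05 in limma, as had 7.62% of all genes tested. Voom on the fragments recovered from the FPKM also passed none of the 8. Of the 7 other than C7, 3 had an unadjusted p under 0.05 in voom, for which the share over all genes was not taken. For 1 of the 8, C7, the groups did not overlap, beside 1.64% of all genes tested. As the genes were selected on C7, these counts describe the set and were not tested against the rest of the genome.

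**Figure D1:**
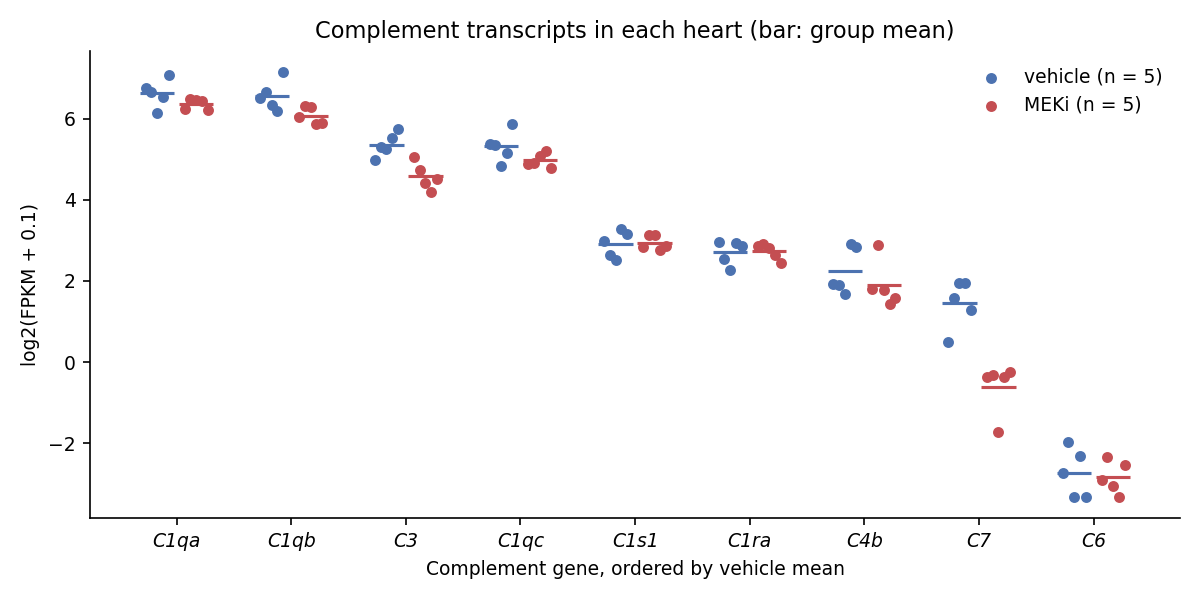
Levels of the 9 complement transcripts in each heart as log2(FPKM + 0.1), with genes ordered by their vehicle mean; each point is 1 heart and each bar the mean of 5 hearts. The points of C7 separate by group, while those of the other 8 genes overlap.

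The order of the vehicle means was C1qa, C1qb, C3, C1qc, C1s1, C1ra, C4b, C7 and C6, from 102 ± 23.1 FPKM for C1qa to 0.0614 ± 0.0674 FPKM for C6 (SD, n = 5). Neighbours in this order had overlapping vehicle ranges except C1qb and C3, C1qc and C1s1, and C7 and C6. C1qb exceeded C3 in 10 of 10 hearts, whereas C3 exceeded C1qc in 3 of 10. The C1q chains were therefore the most abundant of the 9 transcripts beside C3, and C1s1, C1ra and C4b had lower means than these.

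C7, the terminal component on which the selection rests, was at 1.31, 2.90, 3.76, 3.76 and 2.34 FPKM in vehicle hearts 1 to 5 and at 0.676, 0.697, 0.204, 0.669 and 0.737 FPKM in MEKi hearts 1 to 5. All 5 MEKi-treated hearts were below the lowest vehicle heart, vehicle 1, and the lowest of all was MEKi 3. The group means were 2.81 ± 1.03 and 0.596 ± 0.221 FPKM (SD, n = 5 each), a 4.72-fold difference. These values rest on 59 to 143 fragments per vehicle heart and 8 to 32 per MEKi-treated heart. On the scale of the fit the log2 fold change was -2.06 (SE 0.34), given as a description because this difference chose the gene. It was -2.02 without the 3 hearts that stood apart in atrial transcripts.

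**Figure D2:**
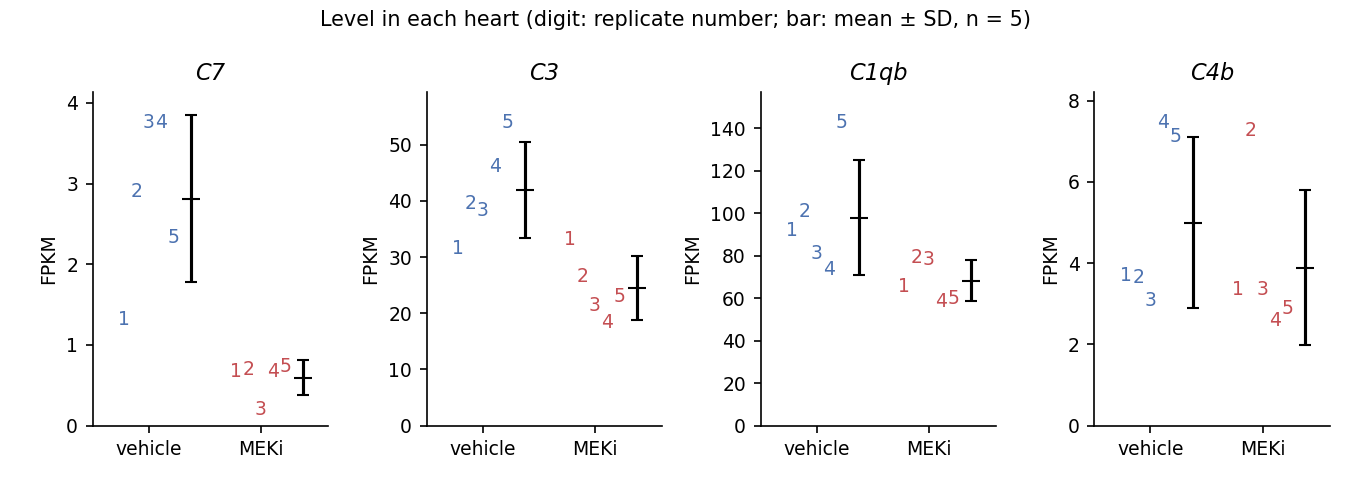
FPKM of C7, C3, C1qb and C4b in each heart, on axes that start at 0. Digits are replicate numbers, which are not labelled as pairs, and bars are the mean ± SD of 5 hearts. C7 has no overlap between the groups, C3 overlaps only through MEKi 1 and vehicle 1, and the high values of C4b are those of vehicle 4, vehicle 5 and MEKi 2.

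C6, which binds C5b before C7 does, was close to the limit of detection, with 3, 8, 0, 5 and 0 fragments in vehicle hearts 1 to 5 and 2, 6, 1, 0 and 4 in MEKi hearts 1 to 5. Only 4 of the 10 hearts were above 3 fragments, the limit that a count of 0 allows, which corresponds to 0.0472 to 0.0606 FPKM of C6. The totals of 16 and 13 fragments showed no difference detectable at this depth (two-sided exact permutation test of FPKM, p = 0.643; the smallest possible p is 0.00794). Of the other genes of the membrane attack complex, Hc (which encodes C5), C8a, C8b and C9 had 0 fragments in every heart, which allows up to 3 per library. C8g, a gene whose lipocalin product joins C8, was at 1.30 ± 0.477 FPKM in the vehicle group and 1.89 ± 0.464 FPKM in the MEKi group (mean ± SD of 5 hearts each; limma adjusted p = 0.645). C7 was thus the terminal component with the highest mean FPKM in vehicle hearts, and C8g was above C7 in the MEKi-treated hearts.

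No gene around C7 passed the threshold. Within 1000000 bases of either end of C7 there were 35 genes in the table, of which 11, C7 included, passed the filter. AW549877, Oxct1 and Gm16374 on the side of C6, and Card6, Rpl37, Gm10250, Prkaa1, Ttc33 and Ptger4 on the other side, had log2 fold changes from -0.27 to 0.03 (SE 0.10 to 0.25). Snord72, a small nucleolar RNA with at most 5 fragments in any heart, was at -1.26 (SE 1.16). The largest estimate among these 10 neighbours was therefore also the least precise. The annotation places the snRNA gene Gm25652 opposite C7, and it had 0 fragments in every heart.

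**Figure D3:**
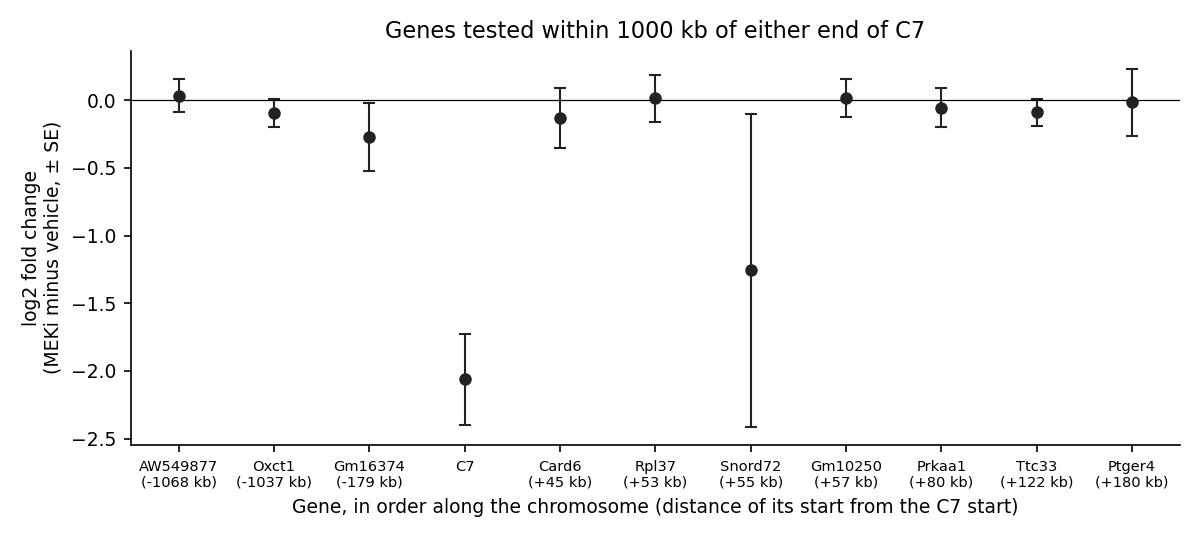
Log2 fold change (MEKi minus vehicle, of FPKM + 0.1) of the 11 genes tested within 1000000 bases of either end of C7, in order along the chromosome with the distance of each start from that of C7; points are limma estimates and bars are ± SE, n = 5 hearts per group. C7 lies at -2.06 and the others, apart from the sparsely counted Snord72, lie near 0.

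C3, the central component, was at 31.5, 39.6, 38.3, 46.1 and 54.0 FPKM in vehicle hearts 1 to 5 and at 33.1, 26.6, 21.4, 18.4 and 22.9 FPKM in MEKi hearts 1 to 5. In 4 of 5 MEKi-treated hearts C3 was below every vehicle heart, and MEKi 1 was above vehicle 1 alone. The means were 41.9 ± 8.53 and 24.5 ± 5.67 FPKM (SD, n = 5 each), 41.5% lower with MEKi. The log2 fold change was -0.78 (SE 0.17; 95% interval, -1.16 to -0.40), and with an adjusted p of 0.255 in limma the difference did not pass the threshold over all genes. It rests on 1619 to 4042 fragments per heart. The microRNA gene Mir6978, which the annotation places inside C3, had 0 fragments in every heart.

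C1q transcripts were lower on average with MEKi, and none of the 3 differences passed the threshold. C1qb was at 91.9, 101, 81.1, 73.5 and 143 FPKM in vehicle hearts 1 to 5 and at 65.7, 79.2, 78.0, 58.6 and 60.0 FPKM in MEKi hearts 1 to 5. Its 2 highest hearts were vehicle 5 and vehicle 2, and 3 of 5 MEKi-treated hearts were below every vehicle heart. The log2 fold change of C1qb was -0.49 (SE 0.17), with an adjusted p of 0.517 in limma. C1qa, at 108, 102, 71.1, 92.8 and 135 FPKM in vehicle hearts and 75.7, 90.2, 87.9, 86.8 and 74.3 FPKM in MEKi-treated hearts, gave -0.27 (SE 0.15; adjusted p = 0.715 in limma). C1qc ranged from 28.6 to 58.5 FPKM in vehicle hearts and from 27.8 to 36.7 FPKM in MEKi-treated hearts, a log2 fold change of -0.34 (SE 0.16; adjusted p = 0.663 in limma). Without vehicle 5 the log2 fold change was -0.16 for C1qa, -0.35 for C1qb and -0.21 for C1qc. For all 3 chains vehicle 5 was the highest heart and the vehicle spread was wider, for example 27.1 FPKM for C1qb in vehicle against 9.78 FPKM in MEKi-treated hearts (SD).

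The 3 chains are assembled in equal numbers. Over all 10 hearts the ratios between their transcripts varied less than the levels, mainly through the vehicle hearts. There C1qc to C1qa was at 0.402 ± 0.0203 and C1qa at 102 ± 23.1 FPKM (mean ± SD of 5 hearts). In the MEKi group the ratio was at 0.381 ± 0.0322 and C1qa at 83.0 ± 7.41 FPKM, which are similar relative spreads. The ratio of C1qc to C1qa in FPKM was between 0.334 and 0.435, with a coefficient of variation of 7.03% over the 10 hearts, beside 20.5% for C1qa and 25.3% for C1qc themselves. C1qb to C1qa varied more, from 0.675 to 1.14 (15.2%). Its mean was 0.967 ± 0.145 in vehicle and 0.823 ± 0.0884 with MEKi (mean ± SD of 5 hearts each), a difference that did not pass the two-sided exact permutation test (p = 0.119), and neither did that of C1qc to C1qa (p = 0.278).

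Macrophage markers moved with C1q. All 8 markers (Csf1r, Adgre1, Cd68, Mrc1, Cx3cr1, Fcgr1, Mertk and Cd163) had lower values with MEKi (median log2 fold change, -0.37), 3 at an unadjusted p under 0.05 and 0 past the threshold in limma. Their summed level was 32.2 to 56.7 FPKM in vehicle and 28.4 to 34.8 FPKM in MEKi-treated hearts, and vehicle 5 was again the highest. The 3 C1q chains summed to 241 ± 59.5 FPKM in the vehicle group and 183 ± 16.9 FPKM in the MEKi group (mean ± SD of 5 hearts each). Divided by the macrophage marker sum of the same heart, a ratio computed after the values were seen, C1q was at 5.94 ± 0.922 in vehicle and 5.93 ± 0.366 in MEKi-treated hearts. The part of macrophage content in the C1q difference was not tested.

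C1ra and C1s1, the protease genes, had nearly equal means in the groups. C1ra was at 6.57 ± 1.29 FPKM in vehicle and 6.60 ± 0.839 FPKM in MEKi-treated hearts, and C1s1 at 7.65 ± 1.73 and 7.65 ± 0.962 FPKM (SD, n = 5 each). The 95% interval of the log2 fold change was -0.30 to 0.34 for C1ra and -0.32 to 0.36 for C1s1, with adjusted p of 0.980 and 0.981 in limma. The ratio of C1s1 to C1ra was between 0.989 and 1.32 in the 10 hearts. Fibroblast markers, which are genes of the cells known to transcribe both proteases, summed to 230 to 346 FPKM in vehicle and 243 to 321 FPKM in MEKi-treated hearts, with 4 of 8 lower and 4 higher and 0 past the threshold in limma (2 at an unadjusted p under 0.05).

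C4b, which encodes the component cleaved by C1s, followed the atrial transcripts of each heart. It was at 3.70, 3.64, 3.08, 7.47 and 7.11 FPKM in vehicle hearts 1 to 5 and at 3.36, 7.27, 3.35, 2.58 and 2.89 FPKM in MEKi hearts 1 to 5. Vehicle 4, vehicle 5 and MEKi 2, the hearts with high atrial transcripts, were at 7.11 to 7.47 FPKM, and the other 7 hearts at 2.58 to 3.70 FPKM. The log2 fold change between the groups was -0.36 (SE 0.31; adjusted p = 0.820 in limma) with all hearts and -0.19 (SE 0.14) without those 3. Leaving out single hearts moved it both ways, to -0.61 without MEKi 2, -0.19 without vehicle 4 and -0.21 without vehicle 5. In vehicle 4, vehicle 5 and MEKi 2, C1s1 was at 9.71, 8.87 and 8.66 FPKM. Vehicle 4 and vehicle 5 were above the range of the other hearts (5.66 to 8.70 FPKM), and MEKi 2 was inside it. The C1ra levels of these 3 hearts, 7.15 to 7.54 FPKM, lay inside the range of the others (4.74 to 7.70 FPKM). The part of atrial tissue in the C4b values was not tested.

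Transcripts of the epicardium and mesothelium, the layers that cover the heart, were compared with C7 and C3 heart by heart. All 6 markers (Msln, Upk3b, Upk1b, Wt1, Krt19 and Lrrn4) had lower values with MEKi (median log2 fold change, -1.32), and 0 passed the threshold in limma or had an unadjusted p under 0.05. Their sum was 8.25 to 24.9 FPKM in vehicle hearts. It was 17.7 and 15.6 FPKM in MEKi 1 and MEKi 2, inside the vehicle range, and 0.875, 5.40 and 3.25 FPKM in MEKi 3, 4 and 5. C7 was at 0.676 and 0.697 FPKM in MEKi 1 and MEKi 2 and at 0.204, 0.669 and 0.737 FPKM in MEKi 3, 4 and 5, and MEKi 3 had both the lowest marker sum and the lowest C7. C3 was higher in MEKi 1 and MEKi 2 than in MEKi 3, 4 and 5. The part of these layers in the C7 and C3 differences was not tested. Of the hepatocyte markers, Fgb had 0 fragments in every heart and the sum of 5 was at most 0.594 FPKM in vehicle and 0.940 FPKM in MEKi-treated hearts.

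**Figure D4:**
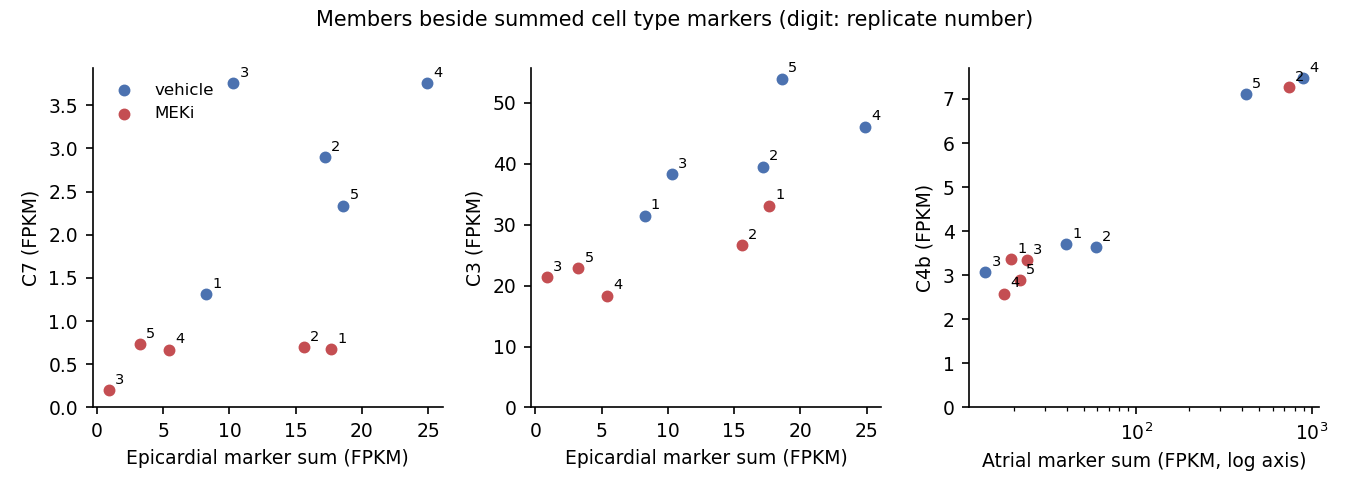
FPKM of C7 and C3 against the sum of 6 epicardial or mesothelial markers, and of C4b against the sum of 6 atrial markers on a log axis; each point is 1 heart, digits are replicate numbers. MEKi 3 has the lowest C7 and the lowest epicardial sum, at 0.204 and 0.875 FPKM, and the 3 highest C4b values belong to the 3 hearts with the highest atrial sums.

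No pair of the 9 genes had a correlation within groups that passed correction. After centring log2 values on the group means, 36 pairs of the 9 genes were correlated over 10 hearts and tested by two-sided exact permutation over all pairings within groups. Before adjustment 5 pairs had p under 0.05 by r and 4 by rho. C1qa and C1qc had r = 0.94 and rho = 0.82 (exact permutation p = 0.00535 and 0.0125, adjusted over 36 pairs 0.108 and 0.152), and r was 0.72 without vehicle 3 and vehicle 5. C1ra and C1s1 had r = 0.83 and rho = 0.72 (exact permutation p = 0.0160 and 0.0677, adjusted 0.192 and 0.305), with r = 0.79 without vehicle 3 and MEKi 5. For C1qa and C1qb r was 0.77 and rho 0.72 (exact permutation p = 0.0440 and 0.0349, adjusted 0.319 and 0.305), and r was 0.60 without vehicle 3 and vehicle 5. C1qb and C1qc had r = 0.71 and rho = 0.58 (exact permutation p = 0.0763 and 0.116, adjusted 0.455 and 0.380), but r was 0.36 without vehicle 5 and vehicle 4 and -0.03 within the MEKi group, so that relation rests on few hearts. C1qc and C7 had r = -0.44 and rho = -0.84 (exact permutation p = 0.217 and 0.00722, adjusted 0.630 and 0.152). Without vehicle 5 and vehicle 3, the hearts farthest out for C1qc, r was -0.50. MEKi 3 and vehicle 1, the hearts farthest out for C7, stayed in. The pairs of C4b with C1s1 and C1ra were also under 0.05 by r before adjustment (exact permutation p = 0.00597 and 0.0442, adjusted 0.108 and 0.319), but C4b divides the hearts into those with and without high atrial transcripts. Over the 7 hearts without them, a choice made after the values were seen, r was 0.68 and rho 0.64 for C1s1 and C4b (exact permutation p = 0.111 and 0.125) and r was 0.71 and rho 0.68 for C1ra and C4b (exact permutation p = 0.0903 and 0.0764).

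Group-centred values over the 10 hearts were compared with those of C7 across the 10697 genes that averaged 1 FPKM or more. The 5 closest by r were Mre11a (r = 0.96, rho = 0.88), Slc31a2 (0.93, 0.87), Rnf19b (0.92, 0.73), Fundc2 (0.92, 0.89) and Exoc2 (0.91, 0.95). They were picked as the highest of all these genes, so the values are a description and were not tested. C7 was farthest from its group mean in MEKi 3 (0.204 FPKM, 8 fragments) and vehicle 1 (1.31 FPKM). These hearts weigh most in the likeness, which was not computed without them.

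The remaining complement genes, a list of 47 components, regulators and receptors, gave no call. All 47 were in the table, 9 had 0 fragments in every heart, and 23 passed the filter. In limma 0 of these 23 passed in either direction (adjusted p from 0.456 to 0.998). An unadjusted p under 0.05 was found for 5 of the 23, beside 7.62% of all genes tested. Of these 5, 4 were lower with MEKi and 1 was higher. The values were lower for 16 and higher for 7, with a median log2 fold change of -0.15 beside 0.01 for all genes, and the groups overlapped for all 23. Among 7 tested components, Cfp, the stabiliser of the alternative convertase, was at 9.84 ± 2.37 FPKM in the vehicle group and 6.92 ± 1.02 FPKM in the MEKi group (mean ± SD of 5 hearts each), with a log2 fold change of -0.48 (SE 0.16).

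The 8 tested regulators included some of the most abundant complement transcripts of the heart. Clu, the chaperone that binds the terminal complex, was at 218 ± 17.4 FPKM in the vehicle group and 173 ± 46.3 FPKM in the MEKi group (mean ± SD of 5 hearts each; adjusted p = 0.664 in limma). Serping1, the inhibitor of C1r and C1s, was at 61.6 ± 11.8 and 54.8 ± 6.92 FPKM, and Cd59a, the membrane inhibitor of C9 assembly, at 50.7 ± 4.90 and 55.9 ± 7.20 FPKM. Vtn, another binder of the terminal complex, was at 11.3 ± 4.19 and 7.86 ± 1.20 FPKM. For none of the 8 did the difference pass the threshold in limma, and 1 of them, Cd59b, had an unadjusted p under 0.05.

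Of 8 tested receptors and binding proteins, 7 had lower values with MEKi. C5ar1, the receptor for the C5a fragment on myeloid cells, was at 3.09 ± 0.938 FPKM in the vehicle group and 1.89 ± 0.376 FPKM in the MEKi group (mean ± SD of 5 hearts each), with a log2 fold change of -0.65 (SE 0.20; adjusted p = 0.456 in limma). Itgam, the alpha chain of complement receptor CR3, was at 1.15 ± 0.446 and 0.662 ± 0.229 FPKM. C1qbp, a mostly mitochondrial protein named for its binding of C1q, was at 43.2 ± 3.95 and 49.9 ± 7.10 FPKM, and Cd93, a surface protein of endothelium and myeloid cells, was at 14.0 ± 2.87 and 12.1 ± 1.49 FPKM. The sum of 4 neutrophil markers, another myeloid list, was 9.75 to 84.2 FPKM in vehicle and 2.80 to 15.2 FPKM in MEKi-treated hearts. It was highest in vehicle 5. Elane had 0 fragments in every heart and Mpo was at most 0.0558 FPKM, so the sum came almost wholly from S100a8 and S100a9. Of the 2 markers that passed the filter, 0 passed the threshold in limma and 1 had an unadjusted p under 0.05. The part of neutrophils in the receptor values above was not tested.

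Cfd, the protease adipsin of the alternative pathway and a product of fat cells, varied more between hearts than between groups. It was at 25.4, 15.1, 0.229, 83.0 and 0.373 FPKM in vehicle hearts 1 to 5 and at 7.34, 81.0, 5.17, 4.49 and 12.1 FPKM in MEKi hearts 1 to 5. The 2 highest hearts, vehicle 4 and MEKi 2, were also those with the highest sum of 4 adipocyte markers, 15.1 and 15.6 FPKM, against at most 5.38 FPKM in the others.

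**Figure D5:**
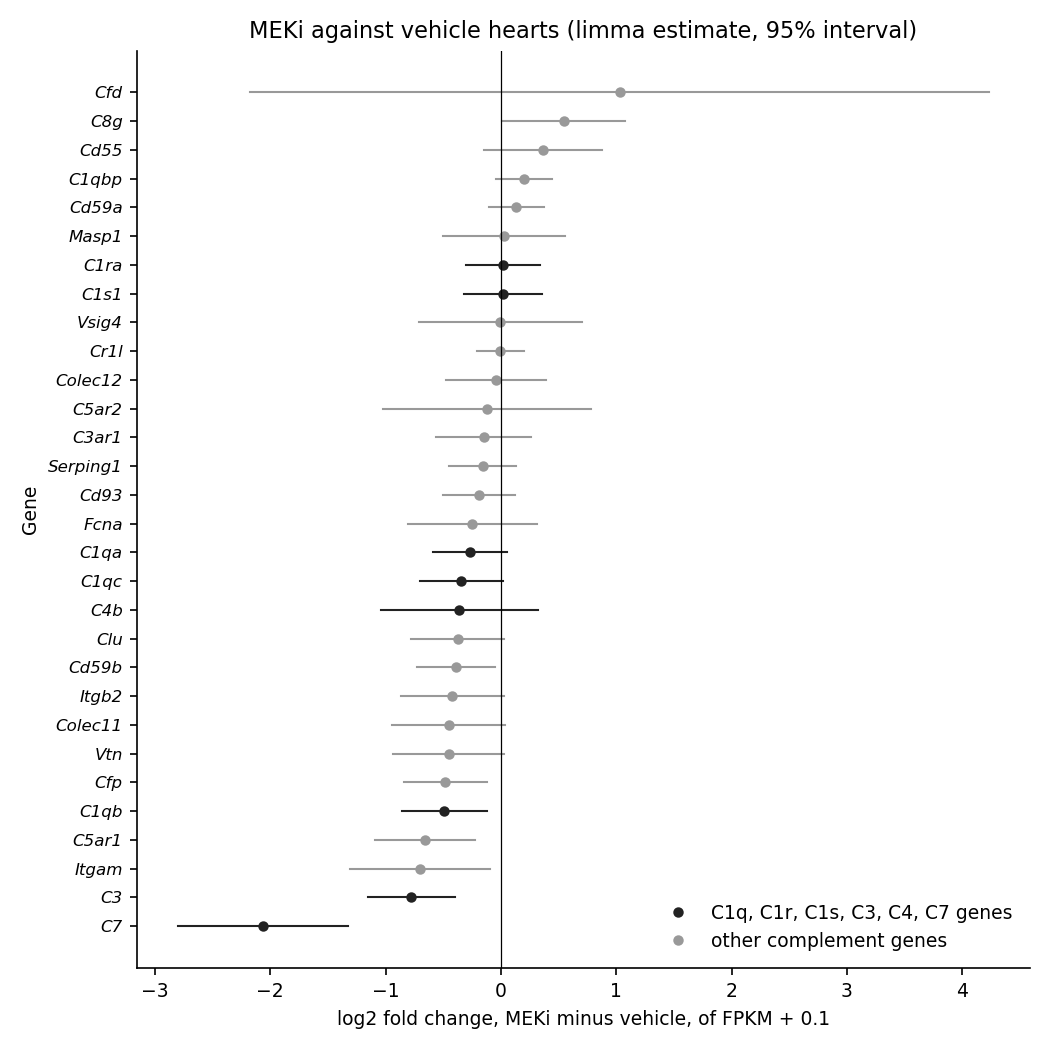
Log2 fold change (MEKi minus vehicle, of FPKM + 0.1) with its 95% interval from limma for the 8 tested genes of the set (black) and the other tested complement genes reported here (grey), n = 5 hearts per group. C7 and C3 are the lowest estimates, and C1ra and C1s1 lie at 0.02.

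Several of these genes have near copies, and the share of fragments lost or exchanged between copies depends on how the authors counted, so their values carry that uncertainty. The longest annotated transcripts of C4b and C4a were 96.1% identical over 5367 aligned bases, those of C1ra and C1rb 98.0% over 2428, and those of C1s1 and C1s2 96.0% over 2642. C4a was counted at no more than 9 fragments in any heart, C1s2 at no more than 3, and C1rb at no more than 16. C7 and C6 aligned over only 346 bases, at 59.8% identity. The antisense gene Gm16567, which overlaps C1s1, had 0 fragments in every heart.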

How the data were processed

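Poly(A) RNA of 10 hearts, 5 per group, was sequenced. The authors deposited one table of FPKM, 1 column per heart, scaled to gene length and to a library size that also equalises the hearts. The submitters' processing notes name fastp, STAR 2.5 and HTSeq 0.6.1 with mm10. The annotation release and strand setting are not given in the sources used here. Multiplying FPKM by gene length gave whole fragments (within 0.01) for 100% of values, used for depth and for the limit at a count of 0 (3 fragments). Such limits cover counting error only. All value columns were mapped to a heart.

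Hearts were grouped by the labelled treatment. limma 3.58.1 in R 4.3.3 (lmFit, eBayes with trend) was run on log2(FPKM + 0.1), two-sided, on genes averaging 0.5 FPKM or more, with p-values adjusted by Benjamini-Hochberg and called under 0.05. Exact permutation used all 252 assignments of hearts to groups. The fit was tested on simulated data. The 9 genes, the list of 47 complement genes and the marker lists were chosen with earlier results of these data known. Named were the 9 genes, the 8 listed complement genes with the highest mean (1 of which is not reported here) and the 5 genes most like C7, beside the sex-linked genes and markers; C8g, Cfp, Cd59b, C5ar1, Itgam, the near copies, the membrane attack complex genes and the neighbours of C7 were added after their values were seen. Alternatives were pseudocounts of 1 and 0.01, other filters, TPM, quantile normalization, eBayes without a trend, array weights, a replicate block, voom on fragments, leaving out sex-linked and mitochondrial genes, and leaving out hearts. That the mice were separate animals is from the study, so the p-values measure the spread between animals. Promoters are from RefSeq (GRCm38.p6), and gene positions of the table were the same as in GENCODE M21 for 98.3% of 54409 genes.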

Additional observations from a re-analysis of the deposited data

Results flagged for a closer look

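Among 34 groups of 5 hearts examined (17 genes in both treatment groups), 3 held a heart far from the others by Dixon's criterion, where chance gives about 1 in 20, or 1.7. C7 in MEKi heart 3 was at 0.204 FPKM (8 fragments), with the other MEKi-treated hearts at 0.669 to 0.737 FPKM. C4b in MEKi heart 2 was at 7.27 FPKM, with the others at 2.58 to 3.36 FPKM. Cfd in MEKi heart 2 was at 81.0 FPKM, with the others at 4.49 to 12.1 FPKM. MEKi 2 was also the MEKi-treated heart with the highest atrial and adipocyte marker sums, at 740 and 15.6 FPKM.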

How the results depend on the processing

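The number of genes past the threshold was 10, and it was 18 with array weights, 2 with a mean of at least 5 FPKM, 0 without X, Y and mitochondrial genes, 5 without the 3 hearts with the most atrial transcripts, and from 5 to 13 when 1 heart was left out. None of the complement genes passed in the fit reported. C7 alone passed with a pseudocount of 1, with array weights and without vehicle replicate 1 (0 to 1 genes over single hearts left out). As the genes were selected on C7, these passes are a description and not support for its difference. C7 had a log2 fold change of -1.22 with a pseudocount of 1 and from -2.30 to -1.79 with single hearts left out. Complement genes of the set with groups that did not overlap numbered 1 to 2 with single hearts left out and 2 without the 3 atrial hearts. Separation of the groups becomes easier for every gene when hearts are left out. The share over all genes tested was taken only with all 10 hearts (1.64%), so these counts are a description. The gene added to C7 was C3 without vehicle replicate 1 or MEKi replicate 1, C1qa without vehicle replicate 3, and C1qb without vehicle replicate 4 or the 3 atrial hearts. The number was 0 with a mean of at least 5 FPKM, a filter that leaves C7 out. C1ra and C1s1 changed sign in some fits with 1 heart left out, from -0.0885 to 0.0908 and from -0.0788 to 0.113. C1qa, C1qb, C1qc, C3 and C4b kept their direction and passed in none of the alternatives, but the values of C1qa, C1qc and C4b moved by over 1.5 times with single hearts left out. Without vehicle replicate 5, C1qa moved from -0.27 to -0.16, C1qc from -0.34 to -0.21 and the median of the 8 genes from -0.35 to -0.21 (-0.20 for C1qc and -0.19 for the median without the 3 atrial hearts), and C4b was from -0.61 without MEKi replicate 2 to -0.19 without vehicle replicate 4. For C3 the range was -0.89 to -0.63 and the adjusted p 0.141 to 0.743 over all alternatives. The other complement genes gave 0 calls throughout. Where a cause is not in the construction of an alternative, it was not tested. The labels give no pairing of hearts by replicate number. The correlation of same-numbered hearts after centring was from -0.154 to -0.0209, which cannot exclude pairing by litter or batch. With the replicate block 4 genes passed and no complement gene did. Depth limits C6, and C7 in MEKi-treated hearts to 8 to 32 fragments.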

Other observations

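Endothelial markers (Pecam1, Cdh5, Kdr and Tie1) summed to 86.3 to 138 FPKM in vehicle and 84.8 to 104 FPKM in MEKi-treated hearts, with values lower for 4 of 4 and a median log2 fold change of -0.14. Smooth muscle and pericyte markers summed to 169 to 226 and 183 to 194 FPKM, with 5 of 6 lower. Lymphatic endothelial markers summed to 16.5 to 38.8 and 20.0 to 26.8 FPKM, with 2 of 4 lower. Lymphocyte markers summed to 0.976 to 5.18 and 1.11 to 3.94 FPKM. In limma 0 markers of these 4 lists passed the threshold, and 1, a lymphatic endothelial marker, had an unadjusted p under 0.05.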
